A study of Mus musculus with 11 samples.

Results

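Genes for pre-mRNA splicing factors and heterogeneous nuclear ribonucleoproteins (hnRNPs) were read from a map of lamin B1 contacts in mouse oligodendrocyte lineage cells. A gene was taken when its symbol started with Srsf or Hnrnp, with Sf3a or Sf3b and a digit, with Snrp (Snrpn left out) or with Prpf and a digit, or was Sfpq, Nono, U2af1, U2af2, Tra2a, Tra2b or Rsrc2. The rule uses names alone and no measured value. It gave 75 of the 21534 gene regions in the table, belonging to 72 genes on 19 chromosomes, since Sfpq had 3 regions and Hnrnpll had 2. The 72 include Hnrnpa1l2, which is annotated as a pseudogene. All 75 had a score in every library, and no filter removed any.

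The map was made by DamID-seq, in which the bacterial adenine methyltransferase Dam is tethered to lamin B1 (Dam-LMNB1) and marks GATC sites near the nuclear lamina, while free Dam records how reachable the DNA is. The wild-type C57BL/6 cells were cortical oligodendrocyte precursors of 7-day-old mice. They received 1 of the 2 lentiviral constructs for 1 day and then spent 72 h either in proliferation medium (the OPC groups, labelled PF) or in differentiation medium (the OL groups, labelled T3). Dam-LMNB1 was read in 3 OPC libraries (numbers 8, 9 and 10) and 3 OL libraries (numbers 18, 19 and 20), and free Dam in 2 OPC and 3 OL libraries. Every group thus received a viral Dam construct, and the share of cells that carried it was not analysed here. OL refers to 72 h of differentiation of cultured precursors and not to mature cells from brain, and pooling of animals is not stated. A score sets 1 Dam-LMNB1 library against all Dam libraries of that condition taken as a pool, and was computed by the authors. Above 0 there was more Dam-LMNB1 than Dam methylation, and the scale has no stated log base, so differences are in score units. The score is not a measure of expression, and identity of the cells by marker RNA was not analysed here.

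Splicing removes introns from nuclear transcripts on the spliceosome, which is built from small nuclear ribonucleoproteins (snRNPs) and many free proteins. SR proteins, named for their arginine- and serine-rich domains, mostly bind exons and help to define them, while hnRNPs coat the nascent RNA and often oppose or shift splice site use. In oligodendrocytes the group is known for 2 jobs: hnRNP A2, the product of Hnrnpa2b1, binds the Mbp messenger RNA that is carried into myelin processes, and hnRNP H and F act on the alternative splice site that separates the myelin proteins PLP and DM20. Genes needed by every cell usually lie in the nuclear interior, and silent genes more often lie at the lamina.

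The promoters of 4 members with differing scores are shown, without that of the highest member, Hnrnpa1l2 (1.70 in OPC). They are the 250 bases before the annotated start, 5′ to 3′ on the gene's strand, from RefSeq (GRCm38.p6), and capitals mark CG dinucleotides, the sites of CpG methylation. Sfpq (chr4:127021051-127021300, plus strand) lies in the least low of the 3 Sfpq regions (−2.36 in OPC), Hnrnpa2b1 (chr6:51469895-51470144, minus strand) is the lowest hnRNP gene, Snrpb2 (chr2:143062819-143063068, plus strand) is 1 of 2 members above 0, and Sf3a2 (chr10:80798485-80798734, plus strand) had the largest rise in OL.

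Sfpq: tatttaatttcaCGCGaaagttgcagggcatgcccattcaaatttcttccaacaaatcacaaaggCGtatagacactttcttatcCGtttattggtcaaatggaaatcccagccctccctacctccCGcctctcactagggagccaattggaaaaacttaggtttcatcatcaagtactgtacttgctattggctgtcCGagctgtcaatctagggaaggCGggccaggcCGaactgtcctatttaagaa
Hnrnpa2b1: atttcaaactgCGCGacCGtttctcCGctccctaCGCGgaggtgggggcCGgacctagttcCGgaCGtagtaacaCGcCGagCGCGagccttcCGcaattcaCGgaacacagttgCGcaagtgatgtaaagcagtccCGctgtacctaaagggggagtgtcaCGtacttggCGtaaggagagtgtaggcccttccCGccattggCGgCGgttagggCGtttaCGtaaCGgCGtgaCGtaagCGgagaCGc
Snrpb2: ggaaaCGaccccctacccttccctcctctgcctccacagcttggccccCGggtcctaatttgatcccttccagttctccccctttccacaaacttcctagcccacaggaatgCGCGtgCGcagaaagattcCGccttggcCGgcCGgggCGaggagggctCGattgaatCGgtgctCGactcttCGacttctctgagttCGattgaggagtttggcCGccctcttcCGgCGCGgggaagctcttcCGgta
Sf3a2: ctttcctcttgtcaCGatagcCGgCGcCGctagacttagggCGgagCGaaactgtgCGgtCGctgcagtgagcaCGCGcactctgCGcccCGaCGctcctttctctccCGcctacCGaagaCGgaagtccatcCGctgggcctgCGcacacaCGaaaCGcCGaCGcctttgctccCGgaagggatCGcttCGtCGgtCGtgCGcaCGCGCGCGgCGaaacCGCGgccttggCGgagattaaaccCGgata

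The window held 8 CG dinucleotides at Sfpq, 29 at Hnrnpa2b1, 19 at Snrpb2 and 37 at Sf3a2. Of the 72 genes, 62 had an entry, with 80 promoters in all, because some genes have several starts. Their median was 19.5 CG dinucleotides per 250 bases, against 11 for the 18524 promoters of all genes in the table, 14 for genes with an OPC score below −1 and 3 for genes with an OPC score above 0. The 2 member promoters above with the highest and the lowest count thus belonged to genes that were both below 0, and the promoter of Snrpb2, above 0, was near the members' median. GATC, the letters that Dam methylates (the same on both strands), occurred in 22 of the 80 member promoters (27.5%) and in 39.6% of all promoters. It occurred once at Snrpb2, 189 bases before the start, and once at Sf3a2, 68 bases before the start, and not in the windows of Sfpq and Hnrnpa2b1. A region score covers many kilobases, so these windows say little about the number of sites behind it, and the sites in the rest of a region were not counted.

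Splicing factor and hnRNP genes lay almost entirely on the interior side of the scale. In OPC, 73 of the 75 regions were below 0 and 2 were above (limma, adjusted p under 0.05), where 71.4% of all regions were below and 25.5% above. In OL, 72 were below, 2 above and 1 on neither side, against 70.9% and 25.9% of all regions. The 2 regions above 0 were the same in both conditions, Snrpb2 and Hnrnpa1l2. The median score of the members was −2.42 in OPC and −2.13 in OL, against −1.54 and −1.47 for all regions. The median over members ran from −2.46 (library 9) to −2.37 (library 8) among OPC libraries and from −2.23 (library 20) to −2.08 (library 18) among OL libraries, so the conditions did not overlap. The library medians over all regions did not overlap either, with every OL library above every OPC library. The separation is therefore not particular to the members.

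**Figure D1:**
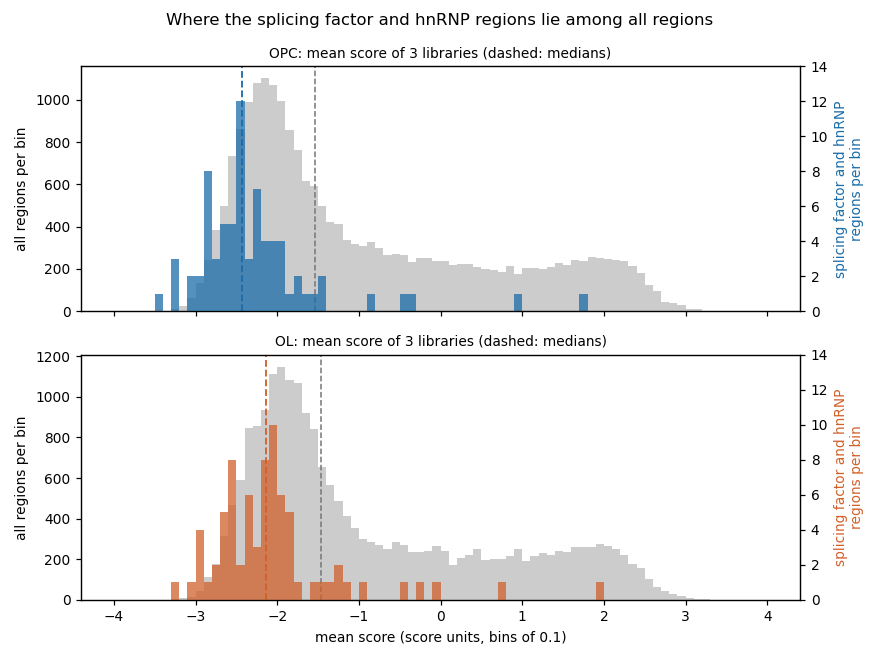
Histograms of the mean score of 3 libraries (horizontal axis, score units, bins of 0.1) in OPC (top) and OL (bottom), with all 21534 regions in grey on the left axis and the 75 splicing factor and hnRNP regions in colour on the right axis. Dashed lines are medians; the coloured bars sit in the left part of the grey distribution, with medians of −2.42 and −2.13 against −1.54 and −1.47.

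Most members were also low among the low regions. In OPC, 54 of the 75 (72.0%) were among the lowest 25% of all regions and 30 among the lowest 10%, and in OL these numbers were 51 and 27. The interquartile range of the members was −2.73 to −2.08 in OPC. The narrowest Sfpq region ranked 4 from the bottom of 21534 in both conditions. Cytosolic ribosomal protein genes, another set that every cell needs, had a median of −2.21 in OPC over 86 regions, with 54.7% among the lowest 25% of regions. The difference between these 2 sets was not tested.

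**Figure D2:**
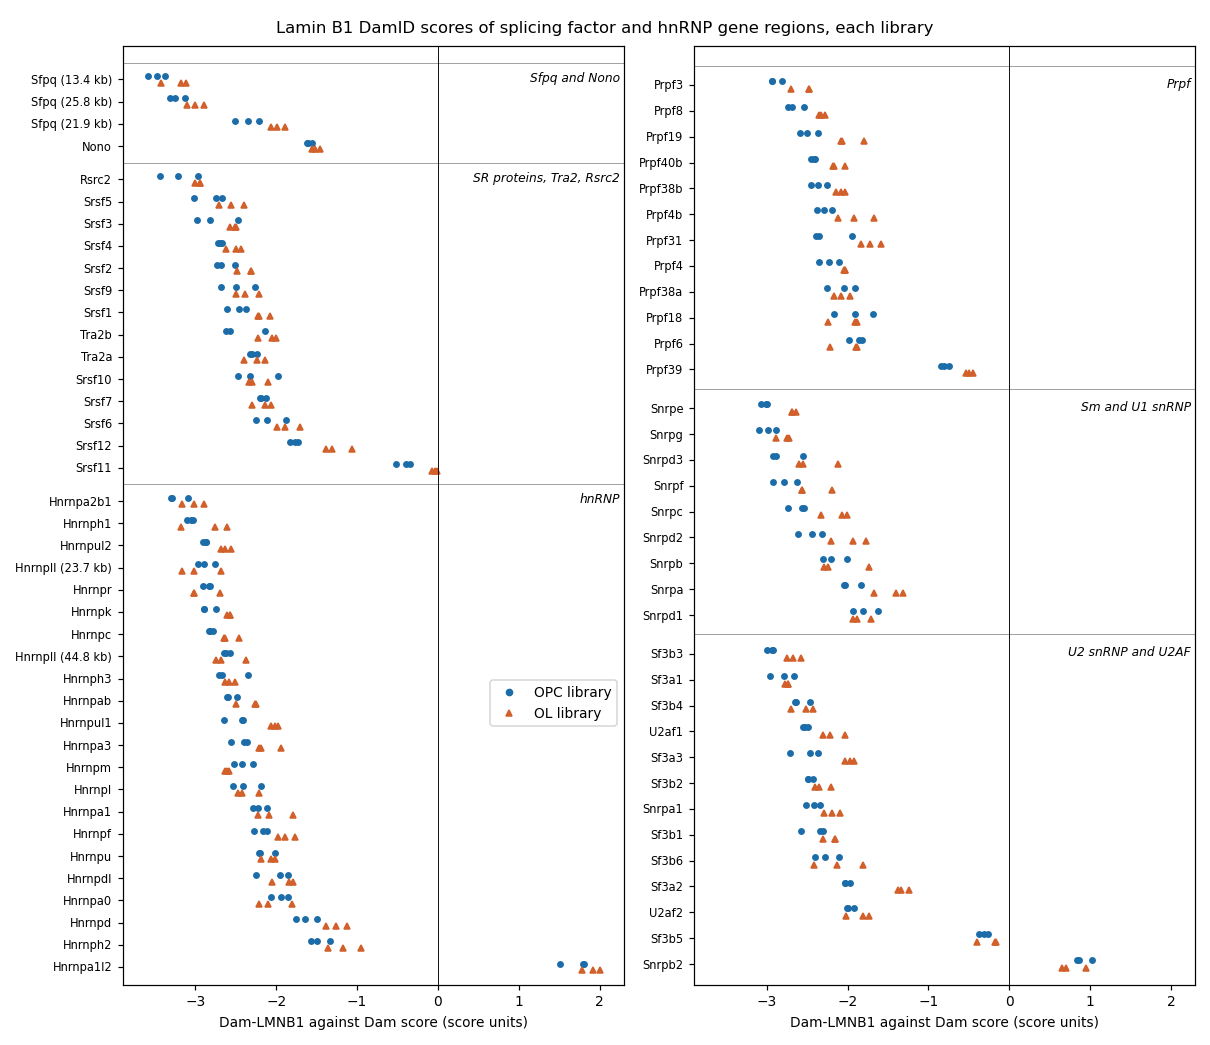
Score of the member regions, 1 of the 75 left out (rows, by role and then by OPC mean) in each OPC library (circles) and OL library (triangles), on a horizontal axis in score units; a width in kb tells apart regions of the same gene. Only Snrpb2 and Hnrnpa1l2 lie to the right of 0, and Srsf11 reaches 0 in OL.

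The hnRNP genes, with 22 regions of 21 genes, had a median of −2.47 in OPC and −2.35 in OL, and 21 of 22 regions were below 0 in each condition. The lowest was Hnrnpa2b1 (chr6:51458434-51479894), with −3.09, −3.30 and −3.29 in OPC and −2.90, −3.17 and −3.02 in OL (here and below in the order of libraries 8, 9, 10 and 18, 19, 20). Its OPC and OL values overlapped, and the change of 0.20 ± 0.10 (SE, n = 3 per condition) did not pass the test (limma adjusted p = 0.151). Hnrnph1 (chr11:50367718-50388528), for a protein that binds runs of G, was nearly as low, with −3.06, −3.11 and −3.03 in OPC and −2.61, −3.18 and −2.76 in OL. OL library 19 lay below every OPC library here while the other OL libraries lay above, so the OL spread (SD 0.30) was far wider than that in OPC (SD 0.04). Hnrnpf (chr6:117896781-117927622), whose protein shares the binding preference of hnRNP H, was less low, with −2.11, −2.16 and −2.28 in OPC and −1.89, −1.76 and −1.98 in OL. The OL libraries were all above the OPC libraries, and its rise of 0.31 ± 0.09 passed the test (limma adjusted p = 0.0302). That call was lost under each of 3 rescalings of the libraries, without any 1 of 4 of the 6 libraries and in a test per region outside limma.

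Within families the levels ranged widely. Of the H family, Hnrnph1 was at −3.07 in OPC, Hnrnph3 at −2.58 and the X-linked Hnrnph2 at −1.47. Of the A and B family, Hnrnpa2b1 was at −3.23, Hnrnpab at −2.56, Hnrnpa3 at −2.44, Hnrnpa1 at −2.21 and Hnrnpa0 at −1.95. Hnrnpa1 (chr15:103230396-103247966), the gene of one of the most abundant hnRNPs, had −2.28, −2.11 and −2.23 in OPC and −1.79, −2.23 and −2.09 in OL, and the conditions overlapped. The region named Hnrnpa1l2 (chr13:74765738-74778885) stood on the other side of 0, with 1.51, 1.81 and 1.79 in OPC and 2.01, 1.79 and 1.92 in OL. The reference gene annotation classes it as a pseudogene. Its name marks it as a copy of Hnrnpa1, and the placing of reads between similar copies is not described, so its value is uncertain. Its surroundings were high as well: of the 10 other regions centred within 500 kb, 7 were above 0 in OPC, and the nearest non-overlapping regions averaged 2.0.

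Among the other hnRNP genes, OPC means ran from −2.88 at Hnrnpul2 to −1.63 at Hnrnpd, whose protein binds AU-rich RNA. Hnrnpk, for a poly(C)-binding protein, was at −2.84, Hnrnpc, for a protein that binds U tracts, at −2.81, Hnrnpl, for a protein that binds CA repeats, at −2.38, and Hnrnpu, for a nuclear matrix protein, at −2.14. The Hnrnpll regions overlap each other. The narrower was at −2.87 in OPC and −2.95 in OL, and the wider at −2.61 and −2.60.

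SR proteins, with Tra2a, Tra2b and Rsrc2, gave 14 regions with a median of −2.46 in OPC and −2.25 in OL. All 14 were below 0 in OPC and 13 in OL. Rsrc2 (chr5:123726425-123759414), for an arginine- and serine-rich coiled-coil protein, was the lowest, with −3.44, −3.22 and −2.97 in OPC and −3.01, −2.95 and −2.94 in OL. Its OPC libraries were spread over a wider range (SD 0.23) than its OL libraries (SD 0.04), and the conditions overlapped. Srsf3 (chr17:29022659-29045372), for the smallest classical SR protein, had −2.82, −2.98 and −2.48 in OPC and −2.51, −2.58 and −2.50 in OL. The highest OPC library lay above all OL libraries, and the change of 0.23 ± 0.12 (SE) did not pass (limma adjusted p = 0.174). Srsf1 (chr11:88037372-88055757), for the founding SR protein, had −2.37, −2.46 and −2.61 in OPC and −2.21, −2.08 and −2.23 in OL. Here the groups did not overlap, and the rise of 0.31 ± 0.09 passed (limma adjusted p = 0.0305). The call was lost under all 3 rescalings and in the test per region outside limma. It was also lost without any 1 of OPC libraries 9 and 10 and OL libraries 19 and 20.

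Srsf12 and Srsf11 stood apart from the other SR genes. Srsf12 (chr4:33198990-33235340) had −1.76, −1.83 and −1.74 in OPC and −1.06, −1.38 and −1.31 in OL. Srsf11 (chr3:158008492-158046639), for an SR-related protein found with U2AF, had −0.52, −0.34 and −0.40 in OPC and −0.01, −0.04 and −0.08 in OL. It was thus the 1 member that was below 0 in OPC (limma adjusted p = 1.67e-05) and on neither side in OL (0.434). Both genes rose, Srsf12 by 0.53 ± 0.10 and Srsf11 by 0.38 ± 0.07 (SE, limma adjusted p = 4.32e-03 and 5.45e-03), with no overlap between conditions.

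The U2 group comprised the SF3A and SF3B subunits of the U2 snRNP, its own proteins Snrpa1 and Snrpb2, and U2AF, which finds the end of the intron. Its 13 regions had a median of −2.42 in OPC and −2.18 in OL, and 12 were below 0 and 1 above in each condition. Sf3b3 (chr8:110808491-110856803) was the lowest, with −2.99, −2.93 and −2.94 in OPC and −2.58, −2.68 and −2.75 in OL. Sf3b1, for the subunit that clasps the branch site, was at −2.41 in OPC and −2.21 in OL. U2af1 (chr17:31645081-31668754), for the subunit that reads the AG at the 3′ splice site, had −2.53, −2.55 and −2.49 in OPC and −2.04, −2.21 and −2.30 in OL. There was no overlap, and the rise was 0.34 ± 0.09 (SE, limma adjusted p = 0.0203). That call was lost without OPC library 8 or 9, under 2 of the rescalings and in the test per region outside limma. U2af2 (chr7:5052142-5081945), for the subunit that binds the polypyrimidine tract, had −2.01, −1.92 and −2.0 in OPC and −1.73, −2.02 and −1.81 in OL. These overlapped, the change of 0.12 ± 0.10 did not pass (limma adjusted p = 0.331), and the difference between the subunits was not tested.

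Snrpb2 (chr2:143053068-143074052), for the U2 B″ protein, had 0.84, 1.02 and 0.87 in OPC and 0.94, 0.65 and 0.70 in OL. All 6 libraries were above 0, at the 81.9 percentile of all regions in OPC, and the conditions overlapped (change −0.15 ± 0.09, limma adjusted p = 0.248). All 4 other regions centred within 500 kb of it were above 0 too, from 0.38 to 1.54 in OPC. Its partner in the U2 snRNP, Snrpa1, was at −2.42 in OPC. Sf3b5, for the smallest SF3B subunit, was the next highest of the group, at −0.32 ± 0.05 in OPC and −0.25 ± 0.13 in OL (SD, n = 3). Of the 6 other regions around it, 5 were above 0 in OPC.

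The Sm proteins, which form the ring around the snRNAs, and the U1 proteins Snrpa and Snrpc gave 9 regions, all below 0 in both conditions, with a median of −2.61 in OPC and −2.13 in OL. Snrpg (chr6:86361539-86380902) had the lowest mean over both conditions, with −2.89, −3.10 and −2.99 in OPC and −2.73, −2.88 and −2.75 in OL. Snrpe, another ring member, was at −3.03 ± 0.04 in OPC and −2.68 ± 0.03 in OL (SD, n = 3). Snrpa (chr7:27185005-27205760), for the U1 A protein, was the highest over the 6 libraries, with −1.83, −2.04 and −2.05 in OPC and −1.31, −1.68 and −1.40 in OL. The ring members ranged from −3.03 at Snrpe to −1.79 at Snrpd1 in OPC, so genes whose products are held in equal number in 1 ring differed by more than their libraries did.

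The Prpf genes code for factors of several spliceosome parts, and their 13 regions were all below 0 in both conditions, with a median of −2.23 in OPC and −2.02 in OL. Prpf3 (chr3:95828621-95865882), for a U4/U6 protein, was the lowest, with −2.94, −2.94 and −2.82 in OPC and −2.47, −2.48 and −2.70 in OL. Prpf8, for the large protein at the catalytic core, was at −2.66 in OPC and −2.33 in OL. Prpf39 (chr12:65026333-65065386), for a U1-associated factor, was the highest, with −0.81, −0.75 and −0.85 in OPC and −0.45, −0.50 and −0.54 in OL.

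Sfpq and Nono encode paired RNA- and DNA-binding proteins of the paraspeckle, a nuclear body. The Sfpq regions gave different values, as they cover different parts of the locus. The region of 13.4 kb (chr4:127025643-127039014) had −3.38, −3.58 and −3.47 in OPC and −3.18, −3.12 and −3.43 in OL, the lowest OPC mean of any member. The region of 25.8 kb (chr4:127025643-127051398) had −3.13, −3.26 and −3.32 in OPC and −2.89, −3.0 and −3.11 in OL. The region that holds the promoter printed above (chr4:127011300-127033236, 21.9 kb) had −2.50, −2.21 and −2.35 in OPC and −2.06, −1.89 and −2.0 in OL. It was the least low of them in every library and the only one of them to pass in OL against OPC. The rise was 0.37 ± 0.10 (SE, limma adjusted p = 0.0191). That call was lost without OPC library 8 or OL library 19, under the rescalings and in the test per region outside limma. All 3 share sequence, so they are not independent. Nono (chrX:101419650-101450593) had −1.56, −1.61 and −1.62 in OPC and −1.56, −1.52 and −1.45 in OL, a change of 0.08 ± 0.08 that did not pass (limma adjusted p = 0.417) and that turned negative under 2 rescalings.

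The comparison of OL with OPC asked whether the contacts of these genes moved as the cells left proliferation. In the scores as deposited, 27 of the 75 regions (36.0%) were higher in OL and 0 were lower (limma, adjusted p under 0.05), where 23.0% of all regions were higher and 10.9% lower. At an unadjusted p under 0.05 in limma, 36 members were higher and 1 lower, against 31.4% and 14.4% of all regions. A test per region outside limma gave 3 higher and 0 lower, against 2.63% and 1.67% of all regions. The median change was 0.23 for the members and 0.10 for all regions. Cytosolic ribosomal protein genes had much the same values, with 27 of 86 regions (31.4%) higher, 3 lower and a median change of 0.21, and so had the other spliceosome genes described below (33.7% higher, median 0.22). All regions in the same low range, with a mean over 6 libraries from −4 to −1, had 25.7% higher and 6.82% lower with a median change of 0.14, and the 70 members in that range had 25 higher and a median of 0.23. OL libraries lay wholly above OPC libraries in 37 member regions and wholly below in 1, against 33.5% and 15.4% of all regions. No member crossed from 1 side of 0 to the other.

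The number of calls moved with the scaling of the libraries. The OL libraries had a narrower spread over all regions (SD 1.46 to 1.54) than the OPC libraries (1.57 to 1.59). When means and SDs were made equal across libraries, 13 members were higher and 1 was lower, against 15.5% and 15.1% of all regions, and the median change was 0.08 for the members and 0.02 for all regions. With quantile normalization 14 were higher and 1 lower (15.5% and 15.2% of all regions), and with each library centred on its median 21 and 1 (16.3% and 15.5%). The change was above 0 in 65 of the 75 members in the deposited scores, in 54 with equal means and SDs, in 50 with quantile normalization and in 56 with median centring. Higher calls were 67.9% of all calls over all regions in the deposited scores and 50.5% with the same mean and SD. Because the scores of each condition rest on the same Dam pool, a change in Dam-LMNB1 and a change in Dam methylation cannot be told apart.

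**Figure D3:**
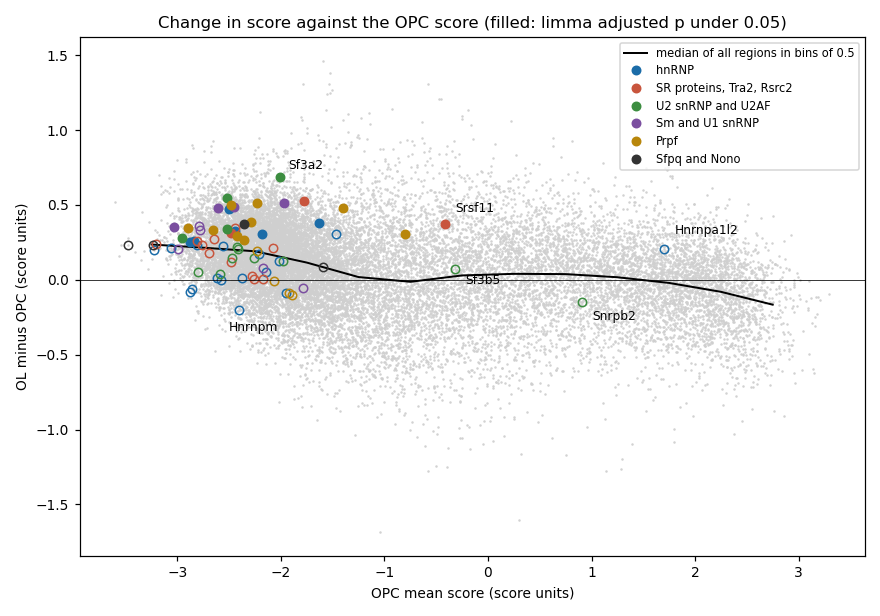
Change in score from OPC to OL (vertical axis, score units) against the OPC mean score (horizontal axis) for all regions (grey) and the 75 splicing factor and hnRNP regions (coloured by role; filled where limma adjusted p is under 0.05), with the running median of all regions as a line. The filled points all lie above 0, the largest at Sf3a2 (0.69), and the line itself is above 0 on the left, where most members are.

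The largest rise was that of Sf3a2 (chr10:80788734-80806922), for an SF3A subunit of the U2 snRNP, with −2.04, −1.97 and −2.03 in OPC and −1.25, −1.34 and −1.38 in OL. The libraries of the 2 conditions were well apart, and the change was 0.69 ± 0.08 (SE, limma adjusted p = 6.22e-04). The genes around Sf3a2 had higher scores in OL too: the change was above 0 in all 59 other regions centred within 500 kb and passed the test in 43, from 0.09 to 0.65 with a median of 0.34. Around Prpf39 it was above 0 in all 6 other regions and passed in 4, with a median of 0.57 against 0.31 at Prpf39 itself. Over all regions 23.0% passed as higher. The surroundings of other members had fewer such calls, 3 of 6 around Sf3b5 and 2 of 7 around Srsf11. There were 0 around Hnrnpa1l2, Hnrnpa2b1, Sfpq and Snrpb2. Sf3a3 (chr4:124704860-124734422), the complex partner of Sf3a2, had −2.37, −2.71 and −2.47 in OPC and −1.97, −1.92 and −2.03 in OL, a rise of 0.55 ± 0.10 (limma adjusted p = 4.83e-03). The third subunit, Sf3a1, was at −2.81 in OPC and −2.75 in OL, and its change of 0.05 ± 0.09 did not pass (limma adjusted p = 0.684). After Sf3a2, Sf3a3 and Srsf12 the largest rises were those of Prpf31, Snrpa and Prpf19.

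Prpf31 (chr7:3619984-3644484), for a U4/U6 protein, had −2.35, −2.39 and −1.94 in OPC and −1.59, −1.72 and −1.83 in OL, a rise of 0.52 ± 0.13 (limma adjusted p = 0.0149). OPC library 10 came close to the OL values, and the call was lost without OPC library 9 and in the test per region outside limma. Snrpa rose by 0.51 ± 0.11 (limma adjusted p = 9.29e-03). Prpf19 (chr19:10885230-10911559), for a ubiquitin ligase of the catalytic spliceosome, had −2.58, −2.50 and −2.36 in OPC and −1.79, −2.07 and −2.09 in OL, a rise of 0.50 ± 0.11 (limma adjusted p = 8.07e-03). OL library 18 was the highest for Prpf19 and for Srsf12, as it was in the median over all regions.

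By role, 9 of 13 Prpf regions were higher in OL, 4 of 9 Sm and U1 regions and 4 of 13 U2 regions. Among the other roles, 6 of 22 hnRNP regions were higher, 3 of 14 SR regions and 1 of 4 Sfpq and Nono regions. Of all regions, 23.0% were higher. The differences between the roles, and of each role from all regions, were not tested. Snrpd2 rose by 0.49, Snrpc by 0.48, Hnrnpul1 by 0.48 and Hnrnpd by 0.38. Of the 27 calls, 13 were also made under all 3 rescalings. They included Sf3a2, Sf3a3, Srsf11, Srsf12, Prpf19, Prpf31, Prpf39, Snrpa, Snrpc, Snrpd2, Hnrnpul1 and Hnrnpd. Without OPC library 9 the calls of Prpf31 and Snrpd2 were lost, and without OPC library 8 that of Hnrnpd. The test per region outside limma lost all of the 27 calls but those of Sf3a2, Prpf39 and Snrpe. Only Sf3a2 and Prpf39 kept their call under each of the 12 alternatives run. Of the members, 3 had an adjusted p under 0.05 in the authors' deposited table, Sf3a2 (0.0377), Snrpe (0.0380) and Prpf39 (0.0495), all higher in OL, against 3.14% of all regions.

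The lower call under rescaling was Hnrnpm, named here after its values were seen. It had −2.28, −2.52 and −2.42 in OPC and −2.59, −2.61 and −2.64 in OL, so that every OL library was below every OPC library. The change of −0.20 ± 0.09 did not pass in the deposited scores (limma adjusted p = 0.108) and was −0.35 with the same mean and SD (limma adjusted p = 0.0134).

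Most splicing factor and hnRNP regions scored lower than the nearest regions that did not overlap them. For each region the nearest region on either side that did not overlap it, within 500 kb, was taken as its neighbour. Overlapping regions, which 77.3% of members had, were thus left out, such as that of Cbx3, at −2.96 in OPC, for Hnrnpa2b1. In OPC 66 of the 75 members (88.0%) scored below the mean of their neighbours. The share was 52.1% for all regions with a neighbour and 60.4% for those with a mean from −4 to −1. The latter were not matched to the members in level, with an OPC median of −2.06 against −2.45 for the members in that range. In OL 63 of 75 members (84.0%) were below their neighbours, against 50.9% of all regions. The OPC share was 86.7% for other spliceosome genes, 78.9% for hnRNP-related RNA-binding genes (lists described below) and 72.1% for ribosomal protein genes. It was 51.9% for the list of other splicing regulators. The differences between these sets were not tested. The median difference from the neighbours was −0.56 in OPC and −0.42 in OL for members, against −0.03 and −0.01 for all regions. The neighbours themselves were low, with a median of −2.04 in OPC. Across members, Pearson's r between a region and its neighbours was 0.813 in OPC and Spearman's rho 0.568 (n = 75), and r was 0.714 without the 2 members whose neighbours were farthest from the median, Hnrnpa1l2 and Srsf11, and 0.668 without the 2 members above 0. Over all 21292 regions with a neighbour r was 0.901 and rho 0.842. Regions and neighbours come from the same libraries and Dam pools, so this is a description only.

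**Figure D4:**
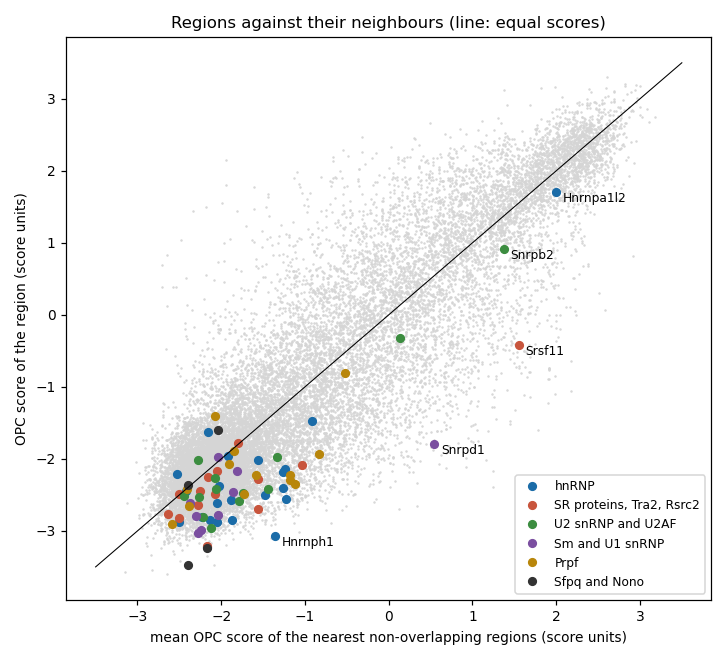
OPC score of each region (vertical axis, score units) against the mean OPC score of its nearest non-overlapping regions within 500 kb (horizontal axis) for all regions (grey) and the members (coloured by role), with a line at equal scores. Of the 75 members 66 lie under the line, with Snrpd1 and Srsf11 far below it.

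The widest gap was that of Snrpd1, a ring member on chromosome 18, at −1.79 in OPC with neighbours at 0.54. Srsf11 followed, at −0.42 with neighbours at 1.56, then Hnrnph1, at −3.07 with neighbours at −1.36. Around Srsf11, 6 of the 7 other regions centred within 500 kb were above 0 in OPC, and none of the 14 around Sfpq, none of the 5 around Hnrnpa2b1 and none of the 59 around Sf3a2 was. The 2 members above 0 were both slightly below their neighbours, with differences of −0.47 at Snrpb2 and −0.30 at Hnrnpa1l2. Above their neighbours in OPC were 9 members, among them Hnrnpd by 0.53 and Nono by 0.44. The members' regions were about as wide as others (median 23.7 kb against 26.3 kb) and as crowded (a median of 16 other regions centred within 500 kb in both sets), and 77.3% overlapped another region against 64.0% of all.

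**Figure D5:**
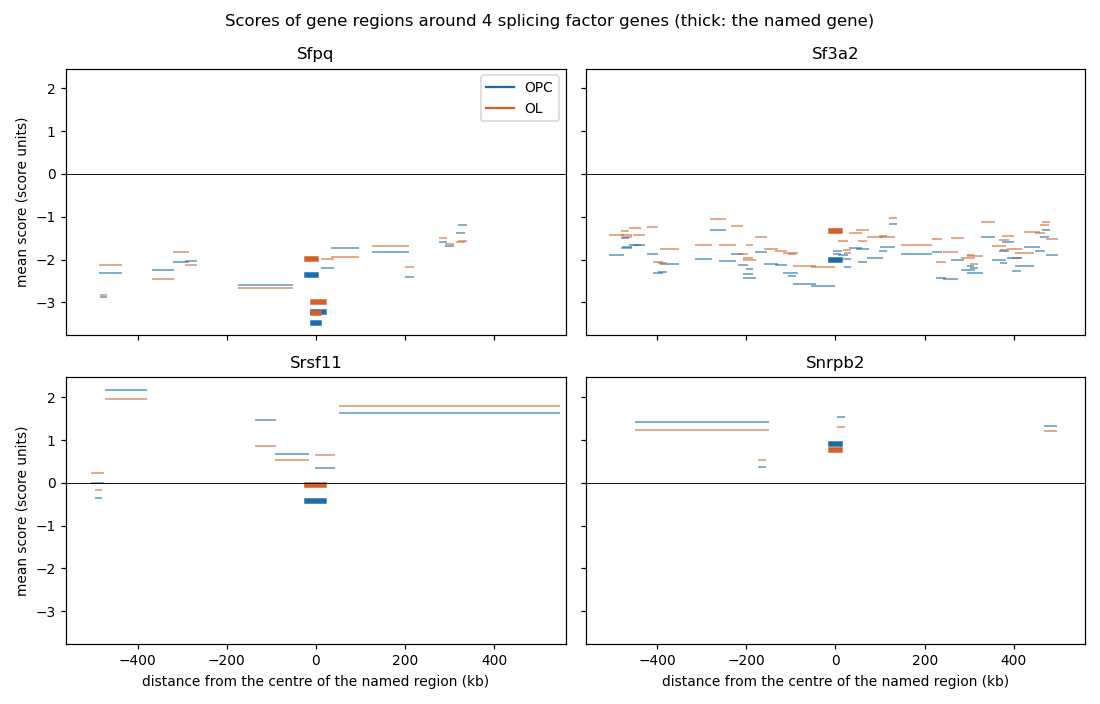
Mean OPC and OL scores (vertical axis, score units) of the gene regions around Sfpq, Sf3a2, Srsf11 and Snrpb2, against the distance from the centre of the named region in kb; each bar spans 1 region, and thick bars are the named gene. The Sfpq regions of 13.4 and 25.8 kb lie below all regions around them in OPC, all bars around Sf3a2 are below 0, Srsf11 lies under mostly positive bars, and all bars around Snrpb2 are above 0.

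Splicing genes outside the name rule were read from 3 further lists. Other spliceosome genes, with 83 regions of 80 genes, had 79 below 0 and 3 above in OPC, a median of −2.36, and in OL 28 higher and 3 lower regions. They included Snrnp25, a minor spliceosome protein (−2.58 to −1.93), and Dhx15, a helicase (−2.10 to −1.31), among the higher, and U2surp (−1.31 to −1.74) and Plrg1 (−0.90 to −1.30) among the lower. One further gene, Clk2, was not analysed here. The hnRNP-related RNA-binding genes, with 19 regions of 18 genes, were all below 0 in both conditions (median −2.36 in OPC). In OL 9 were higher and 1 lower (47.4% and 5.26%, against 23.0% and 10.9% of all regions). Among them Pspc1, the third paralog of Sfpq and Nono, rose from −1.41 to −0.99, Tardbp, for TDP-43, from −3.05 to −2.60, and Pcbp3 by 1.31.

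The third list held other splicing regulators, from families with tissue-restricted members (Rbfox, Nova, Celf, Mbnl, Ptbp, Elavl and others) together with their broadly expressed paralogs such as Elavl1, Khdrbs1, Celf1 and Ptbp1. Its interquartile range in OPC was −2.16 to −0.15. Of 31 regions, 24 were below 0 and 4 above in OPC, and 21 and 6 in OL, with a median of −1.32 in OPC and 25.8% among the lowest 25% of all regions. The highest were Khdrbs2 at 1.98, Elavl2 at 1.07, Rbfox1 at 0.66 and Mbnl3 at 0.31 in OPC. Elavl2 and Rbfox1 code for regulators well known from neurons, but their families lay at widely differing levels. Elavl1 was at −1.92, Elavl3 at −2.23 and Elavl4 at −0.03, and Rbfox2 was at −2.57 and Rbfox3 at −1.24. The lowest was Qk at −2.85, the gene of the quaking proteins that bind myelin messenger RNAs in oligodendrocytes. Ptbp1 was at −2.07 in OPC and its neuronal paralog Ptbp2 at −0.41, and Ptbp2 rose to 0.02 in OL (limma adjusted p = 6.89e-03). In this list 11 regions (35.5%) were higher in OL and 1, Mbnl2, was lower, with a median change of 0.20. The members had 36.0% higher with a median change of 0.23, and all regions 23.0% and 0.10. The difference of this list from the members was not tested, and its regions were wider (median 95.8 kb).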

How the data were processed

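Per the file headers, the deposited table gives for each gene region a score for each of 6 Dam-LMNB1 libraries against the pooled Dam libraries of the same condition, together with the authors' p-value and adjusted p-value (1 blank). The submitters' processing notes name BWA 0.7.17, cutadapt 1.9.1 and the build mm10. The step from reads to scores was not given in the sources used here, and depth is unknown. Scores were used as deposited, unfiltered. A model with 1 mean for each condition was fitted over all 21534 regions in limma 3.58.1 under R 4.3.3, with a trended prior variance (9.42 total degrees of freedom). A check on simulated data used independent noise for each region and library. It left out the shared Dam pools, the overlap of regions and the scale of the libraries, so it cannot speak to their effect on the calls. The tests, of each mean against 0 and of OL against OPC, were two-sided, and p-values were adjusted by Benjamini-Hochberg over all regions (threshold 0.05). With 3 libraries a group, whose separate origin is not stated, p-values measure only the spread between libraries and leave out that between Dam libraries. Alternatives were 3 rescalings, no variance trend, a test per region with its own variance, protein-coding genes with 1 region each, and leaving out each library. Library values are given for the highest and lowest member of each role, the 6 largest called changes in each direction (no fall was called), members above 0 and 10 genes always taken; other members are named as examples. Coordinates, widths, overlaps and distances are those of the table's regions (mm10), which can reach past the gene. The Hnrnpd region, for example, ends at 99988938, beyond the promoter window of that gene, which ends at 99979188. The values of 1 member, counted in the totals, are not reported here. The members and lists were chosen with earlier results of these data known.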

Additional observations from a re-analysis of the deposited data

How the results depend on the processing

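The numbers of members below 0, 73 in OPC and 72 in OL, were the same under the rescalings, without a variance trend and without any 1 library, and the test per region gave 73 and 71. The number of members higher in OL, 27 in the deposited scores, was 14 with quantile normalization, 13 with the same mean and SD and 3 with a test per region outside limma. With 1 library left out it ran from 14 (without OPC library 9) to 23 (without OL library 18 or 20). The share of all regions higher fell too, from 23.0% to 15.5% under both of these rescalings and 2.63% in the test per region. It was 14.6% without OPC library 9, 18.7% without OL library 18 and 18.0% without OL library 20. The number lower, 0 in the deposited scores, was 1 under each rescaling (Hnrnpm) and from 0 to 1 with 1 library left out (1, Snrpb2, without OL library 18). Over all regions 10.9% were lower in the deposited scores, 15.1% to 15.5% under the rescalings and 11.9% without OL library 18. The median member score was −2.35 in OPC and −2.21 in OL with quantile normalization and −2.35 and −2.38 in OPC with the same mean and SD and with median centring, and the median change was 0.0859 with quantile normalization and 0.0767 with the same mean and SD, against 0.23. The change turned negative in 15 members with quantile normalization, 11 with the same mean and SD and 9 with median centring. Among those with library values, that of Nono turned to −0.0112 (quantile) and −0.0245 (same mean and SD) and that of U2af2 to −0.0245 (quantile). Rescaling by its construction takes out a shift common to a condition's libraries, and for the other alternatives the cause was not tested. No paired analysis was possible because the library numbers of the conditions do not match. Depth is unknown and sets no stated limit.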

Other observations

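Some members lie close together. The regions of Hnrnpd and Hnrnpdl, neighbouring paralogs on chromosome 5, lay 42.6 kb apart, at −1.63 and −2.02 in OPC and −1.25 and −1.90 in OL. Those of Hnrnpa0 and Hnrnpk on chromosome 13 lay 251 kb apart, at −1.95 and −2.84 in OPC. Those of Prpf3 and Sf3b4 on chromosome 3 lay 297 kb apart, at −2.90 and −2.59. Gaps between regions are not gaps between genes, as a region can reach past its gene. The differences within these pairs were not tested.

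Among exon junction complex and SR-related genes, which mark spliced RNA, 13 of 15 regions were below 0 in OPC. Casc3 was at −3.19, while the paralogs Magoh and Magohb were at −2.49 and 0.43. The table has 2 regions under the symbol Rbm8a, at −2.90 on chromosome 3 and at 1.41 on chromosome 1. All 6 regions of SR protein kinases were below 0, from −2.84 at Clk1 to −1.45 at Clk4, and 3 of them were higher in OL, where 23.0% of all regions were.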
